A study of Mus musculus with 2 samples.

Results

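The troponin genes encode the calcium switch of striated muscle. The members described here are the 8 genes for the subunits (Tnnc1, Tnnc2, Tnni1, Tnni2, Tnni3, Tnnt1, Tnnt2 and Tnnt3) and Tnni3k, a cardiac kinase named for its interaction with cardiac troponin I. They were chosen by gene symbol, by a rule that uses no measured value, though with earlier results of these data known. They make up 9 of the 55536 annotated genes in the tables. All 9 were found, with 88 annotated transcripts between them. Total RNA of whole heart was sequenced from females of the mouse strain B6CASTF1/J, the F1 offspring of a C57BL/6J by CAST/EiJ cross, at 4 days of age, with 300 ng of RNA and ERCC spike-in RNA per stranded, ribosome-reduced library. The series holds 2 libraries, numbered by the labels as biological replicates 1 and 2, and both form 1 group with no treatment, other genotype or other age to compare with. Both carry the same donor label, so their being separate animals rests on the replicate numbers, and the spread between them may be partly technical. A permutation test over 2 libraries cannot give a two-sided p below 0.5, and no p-value is given.

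Troponin is a complex of 3 subunits that sits on the actin and tropomyosin strands of the thin filament. Troponin C binds calcium, troponin I holds the filament in the inhibited state until calcium arrives, and troponin T ties the complex to tropomyosin. Each subunit has cardiac, slow skeletal and fast skeletal forms from separate genes, except that cardiac and slow muscle share a troponin C gene. Around birth the rodent heart is known to shift from slow skeletal to cardiac troponin I, and from embryonic to adult splice forms of cardiac troponin T.

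Expected counts came to 36175363 for replicate 1 and 32509660 for replicate 2. With no count seen, a gene could still have had up to 3, which is 0.0829 and 0.0923 CPM (counts scaled to the library total), and such limits cover counting error only. All 20 cardiomyocyte markers reached a TPM of at least 1 in both libraries, where TPM is the length-corrected transcript level. The libraries differed in blood RNA: erythroid markers summed to 17285 TPM in replicate 1 and 226 TPM in replicate 2. In whole tissue, fewer cells of a type and less RNA per cell cannot be told apart.

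Troponin C came almost entirely from the cardiac and slow gene. Tnnc1 (ENSMUSG00000091898.8, mm10 chr14:31208312-31211729, plus strand) stood at 2346 TPM in replicate 1 and 2393 TPM in replicate 2, a mean of 2369 ± 32.9 (SD, n = 2). Tnnc2, the fast skeletal form (ENSMUSG00000017300.9, chr2:164777161-164779967, minus strand), stood at 4.80 TPM in replicate 1 and 0.07 TPM in replicate 2, from 81 counts and 1 count. Tnnc1 thus held 99.8% of troponin C TPM in replicate 1 and above 99.9% in replicate 2. The level of Tnnc1 was alike in the 2 hearts, whereas that of Tnnc2 was not.

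The pair differs in the first calcium-binding loop, which is active in the fast form and known to be inactive in the cardiac form. The coding sequence of the loop spans 12 codons in Tnnc2 and 13 codons in Tnnc1. The stretches below start at codon 25 of each coding sequence, as annotated for the transcripts Tnnc1-202 and Tnnc2-201 in GENCODE M21, and the capitals mark the loop. They are shown because nearly all troponin C mRNA in these hearts came from the gene with the 13-codon loop.
Tnnc1 loop: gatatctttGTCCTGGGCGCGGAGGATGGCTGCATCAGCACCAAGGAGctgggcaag
Tnnc2 loop: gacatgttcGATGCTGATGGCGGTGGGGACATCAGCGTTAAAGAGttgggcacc

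Troponin I was mainly a mixture of 2 genes, with the cardiac form ahead in gene TPM. Tnni3, the cardiac form (ENSMUSG00000035458.15, chr7:4518305-4524229, minus strand), stood at 2080.4 TPM in replicate 1 and 2214 TPM in replicate 2. Tnni1, the slow skeletal form that the fetal heart also uses (ENSMUSG00000026418.16, chr1:135779434-135810989, plus strand), stood at 896 and 912 TPM. The ranges did not meet: the lower Tnni3 value exceeded the higher Tnni1 value in these tables. In the kallisto-layout tables both genes were higher, Tnni3 at 3585 and 3598 TPM and Tnni1 at 1971 and 1977 TPM, in the same order. In the RSEM-layout gene tables Tnni3 held 70.2% ± 0.729 (SD, n = 2) of troponin I TPM and Tnni1 29.6% ± 0.617. Tnni2, the fast skeletal form (ENSMUSG00000031097.15, chr7:142441808-142444410, plus strand), was at 7.26 TPM in replicate 1 and 2.66 TPM in replicate 2, which was 0.243% and 0.0850% of the total.

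Cardiac troponin I is longer at its start than the skeletal forms. The coding sequence of Tnni3-201 held 211 codons, 24 more than Tnni1-207 and 29 more than Tnni2-201. The extension carries a pair of neighbouring serines that protein kinase A is known to phosphorylate during adrenergic stimulation, and the slow form lacks it. The first 45 codons of Tnni3 and the first 15 of the other two are printed from the start codon, with the serine codons 23 and 24 of Tnni3 in capitals, because they show what the Tnni1 share of the mixture does not encode.
Tnni3 start: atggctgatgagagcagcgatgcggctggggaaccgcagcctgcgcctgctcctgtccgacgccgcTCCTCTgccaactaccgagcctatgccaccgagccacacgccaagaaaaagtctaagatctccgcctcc
Tnni1 start: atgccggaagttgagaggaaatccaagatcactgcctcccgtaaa
Tnni2 start: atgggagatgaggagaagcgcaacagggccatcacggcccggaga

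Troponin T was nearly all cardiac. Tnnt2 (ENSMUSG00000026414.13, chr1:135836354-135852260, plus strand) stood at 2963 TPM in replicate 1 and 3239 TPM in replicate 2, the highest level of the 9 genes. It held rank 16 among the 11948 protein-coding genes, mitochondrial ones included, that reached a TPM of 1 in each heart. The slow skeletal form Tnnt1 (ENSMUSG00000064179.13, chr7:4504570-4516382, minus strand) stood at 21.6 and 19.2 TPM, and the fast skeletal form Tnnt3 (ENSMUSG00000061723.18, chr7:142498836-142516009, plus strand) at 4.84 and 1.41 TPM. Tnnt2 held 99.2% ± 0.178 of troponin T TPM, Tnnt1 0.657% ± 0.0937 and Tnnt3 0.103% ± 0.0839 (SD, n = 2). The slow troponin I gene was therefore a large part of its family in these hearts, and the slow troponin T gene was not: the log2 ratio Tnni1/Tnni3 was -1.25 ± 0.05, and that of Tnnt1/Tnnt2 was -7.25 ± 0.21 (SD, n = 2).

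The kinase gene Tnni3k (ENSMUSG00000040086.13, chr3:154786291-155055407, minus strand) stood at 53.25 TPM in replicate 1 and 54.9 TPM in replicate 2. In order of mean TPM the genes ran Tnnt2, Tnnc1, Tnni3, Tnni1, Tnni3k, Tnnt1, Tnni2, Tnnt3 and Tnnc2. Each neighbouring pair in that order was separated in both libraries, except Tnni2 with Tnnt3 and Tnnt3 with Tnnc2, whose ranges overlapped. The mean kallisto-layout levels were higher by more than 1.5 times for Tnni1, Tnni3, Tnni2, Tnnt3 and Tnnt1 (34.3 and 34.1 TPM for the last), and Tnnt2 was also higher there, at 4491 and 4811 TPM. The order was the same on 5 of the 6 scales tried, and in the kallisto-layout tables Tnni3 stood above Tnnc1. The posterior SD of the count, which measures how far reads could be assigned to other genes, was 0 in both libraries for 8 members and 0.03 counts in replicate 2 for Tnni3.

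**Figure D1:**
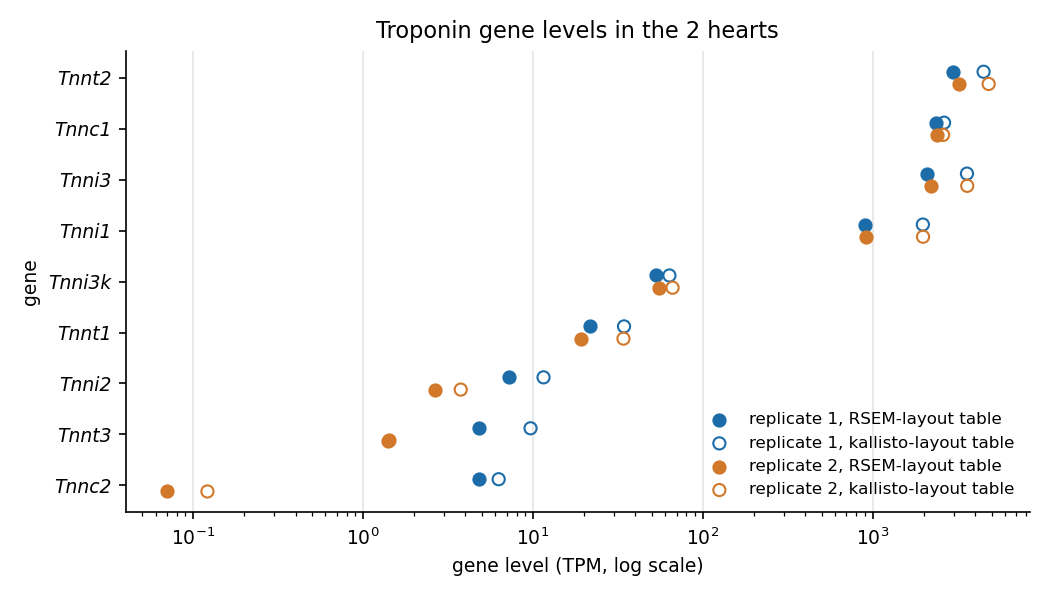
Gene level in TPM on a log axis for the 9 genes, in replicate 1 (blue) and replicate 2 (orange), from the RSEM-layout gene tables (filled points) and the kallisto-layout transcript tables summed per gene (open points). The 4 most abundant genes lie between 896 and 3239 TPM in the RSEM-layout tables, and the 3 fast skeletal forms lie at or below 7.26 TPM there (up to 11.5 TPM in the kallisto-layout tables) and are lower in replicate 2 in both.

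Whether the subunits are matched in amount depends on the scale, since each complex holds a single copy of each subunit but mRNA levels are not protein levels. On the TPM scale the troponin I genes summed to 1.29 times the troponin C genes, a log2 ratio of 0.37 ± 0.03, and the troponin T genes to 1.32 times, a log2 ratio of 0.40 ± 0.07 (SD, n = 2). With only protein-coding transcripts of the RSEM-layout tables counted, the troponin I to troponin C ratio turned to -0.24 ± 0.02 on the log2 scale. In the kallisto-layout tables, with all transcripts counted, it was 1.09 ± 0.02. These scales differed by more than the hearts did, so no order of the 3 sums can be read from these tables beyond troponin T over troponin C. That ratio kept its sign on all 6 scales (0.25 to 1.13), which are not independent of each other. The 1.13 was in CPM, which is not corrected for length, and posterior mean TPM (0.40) nearly repeated TPM. The cardiac lead over slow troponin I also kept its sign on all 6 scales. Its size ran from 1.20-fold among protein-coding transcripts of the RSEM-layout tables to 2.37-fold in gene TPM. The lead did not hold among protein-coding transcripts of the kallisto-layout tables, which were not among the 6 scales. There they held 49.8% and 48.9% of the 3585 and 3598 TPM of Tnni3 in replicates 1 and 2. For Tnni1 they held nearly all of 1971 and 1977 TPM, which was more in both libraries.

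**Figure D2:**
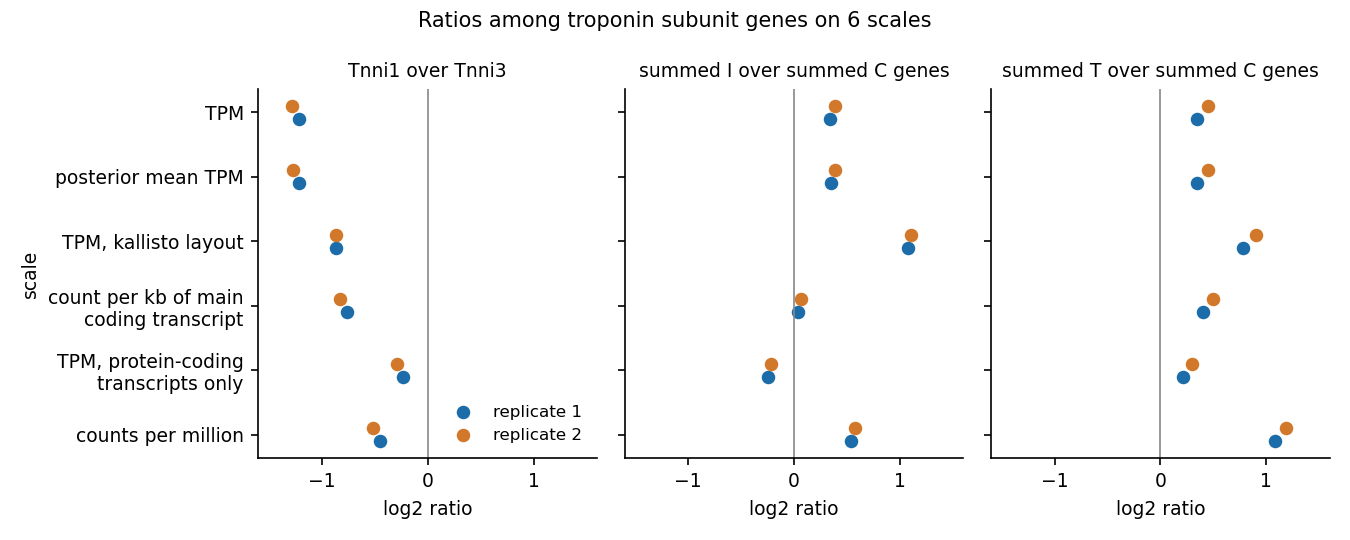
log2 ratios of Tnni1 over Tnni3, of summed troponin I over summed troponin C genes, and of summed troponin T over summed troponin C genes, in replicate 1 (blue) and replicate 2 (orange) on 6 scales. Tnni1 lies below Tnni3 on all 6 (-0.26 to -1.25), and the troponin I to troponin C ratio lies below 0 only among protein-coding transcripts (-0.24). The protein-coding scale is from the RSEM-layout tables.

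The transcripts to which Tnni3 reads were assigned differed between the kinds of table. Transcripts annotated as retained-intron forms, which carry intron sequence and no complete coding region, held 49.3% of Tnni3 TPM in replicate 1 and 49.7% in replicate 2, or 49.5% ± 0.253 (SD, n = 2). In the RSEM-layout tables this share lay almost wholly in Tnni3-202 (47.1% and 47.3% in replicates 1 and 2), a transcript of 451 bases of which 411 are exon bases of the coding transcript Tnni3-201 and 40 are its own. In the kallisto-layout tables Tnni3-202 was at 0 in both libraries, and Tnni3-204, with 514 bases of which 190 are its own, held 47.5% and 48.5%. The retained-intron share was near that of the coding forms in both kinds of table, but the transcript that held it was not the same. By expected count rather than TPM, Tnni3-202 held 28.3%, since a short transcript weighs more in TPM.

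The coding transcript of Tnni1 was also table-dependent. Tnni1-207 held 92.4% and 89.7% of the gene's TPM in replicates 1 and 2 of the RSEM-layout tables. It held 22.8% and 34.6% in the kallisto-layout tables, where the shorter Tnni1-202, of 509 bases, held 39.8% and 39.9%. Transcripts annotated as protein-coding held above 99.9% of Tnni1 TPM in both kinds of table. Tnnc1 had a single main form, with Tnnc1-202 at 99.0% and 98.9% of TPM in replicates 1 and 2 and 98.9% and 98.8% in the kallisto-layout tables.

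Tnni3k had a coding form and other forms in like proportion in both hearts. Tnni3k-201, whose coding sequence spans 834 codons, held 63.8% and 64.0% of its TPM in replicates 1 and 2. The retained-intron transcript Tnni3k-203 held 24.7% and 25.8% (6.74% and 7.13% by expected count), and Tnni3k-202, annotated as a target of nonsense-mediated decay, held 11.6% and 10.1%. Tnni3k-202 skips 2 exons, of 110 and 170 bases (chr3:154856521-154856630 and chr3:154827481-154827650), whose inclusion was 84.6% and 86.3% in replicates 1 and 2. The kallisto-layout values were close, at 82.8% and 83.8%.

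**Figure D3:**
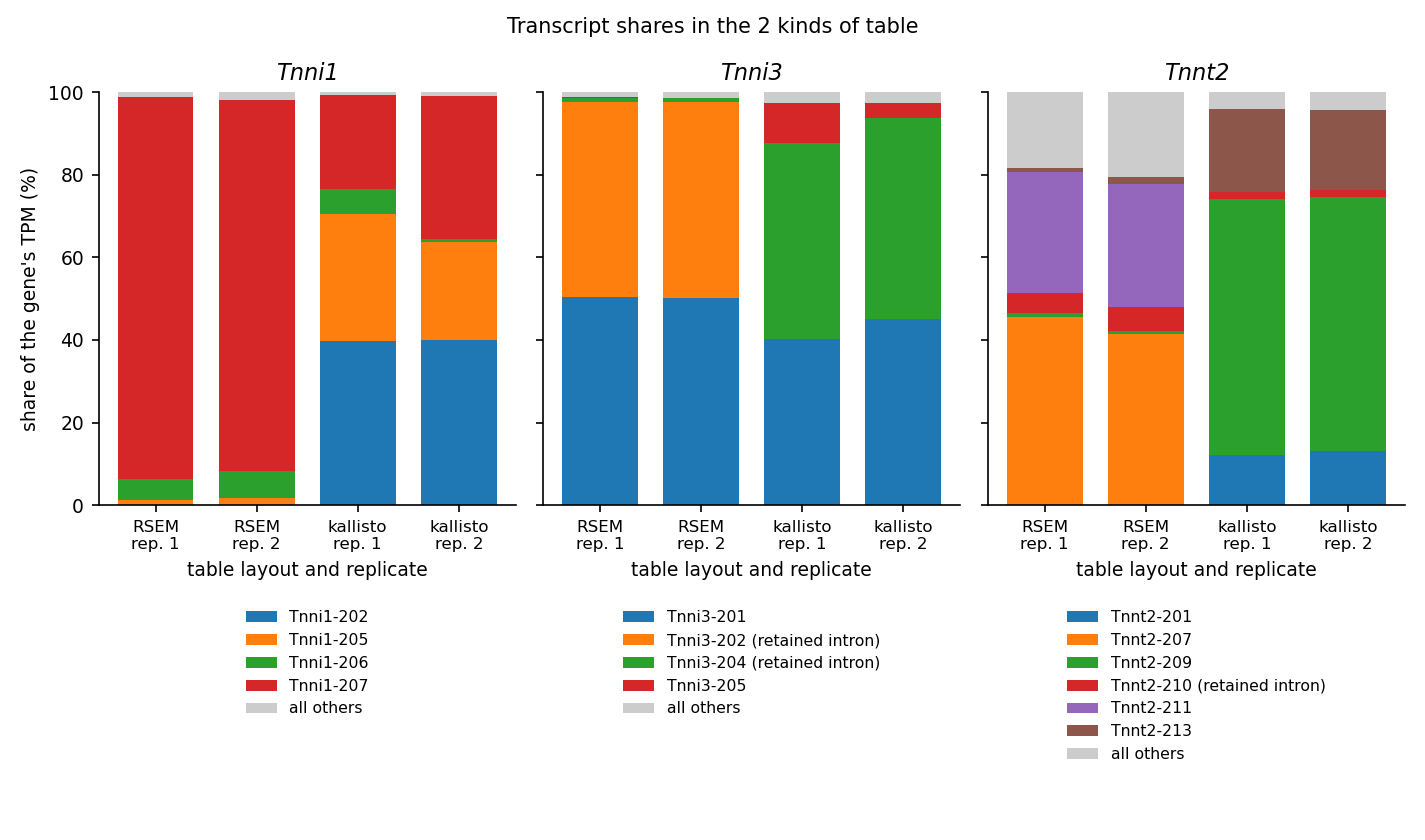
Share of each gene's TPM held by its transcripts (those with at least 5% in any of the 4 columns in colour, all others in grey), for Tnni1, Tnni3 and Tnnt2 in the RSEM-layout and kallisto-layout tables of replicates 1 and 2. For Tnni3 and Tnnt2 the replicates of a layout differ less than the layouts, which name different transcripts (Tnni3-202 or Tnni3-204, and Tnnt2-207 with Tnnt2-211 or Tnnt2-209 with Tnnt2-213), while Tnni1-207 also differs between the kallisto-layout replicates (22.8% and 34.6%).

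Cardiac troponin T was present in more than 1 splice form. Near its start Tnnt2 has a 12-base exon (chr1:135842015-135842026) and a 30-base exon (chr1:135843785-135843814), the latter known as the embryonic exon that adult hearts skip. The 30-base exon begins 1 base into a codon and holds 9 whole codons, of which 7 encode acidic residues. A 9-base exon (chr1:135850379-135850387) lies further along the transcript. The stretches below, from chr1:135841901-135845572 on the plus strand of mm10, join the exons as 4 annotated transcripts do, with the 30-base exon in capitals, because they show how the forms differ at the acidic start of the protein.
Tnnt2-207 (both): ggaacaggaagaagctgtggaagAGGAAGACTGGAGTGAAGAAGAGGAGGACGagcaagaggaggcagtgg
Tnnt2-204 (30-base exon): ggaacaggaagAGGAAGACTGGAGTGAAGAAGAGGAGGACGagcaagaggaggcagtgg
Tnnt2-206 (12-base exon): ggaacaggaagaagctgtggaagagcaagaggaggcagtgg
Tnnt2-211 (neither): ggaacaggaagagcaagaggaggcagtgg

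Transcripts that include the embryonic exon held somewhat more TPM than those that skip it. They held 1475 and 1479 TPM in replicates 1 and 2, beside 1100 and 1263 TPM for those that skip it. The gene as a whole stood at 2963 and 3239 TPM. Inclusion is the TPM of transcripts with exactly that exon as a percentage of those with it and those that skip it. The 30-base exon was included at 57.3% in replicate 1 and 53.9% in replicate 2, a mean of 55.6%. The 12-base exon was included at 59.3% and 57.7%. Inclusion of the 9-base exon was 41.8% in replicate 1 and 44.6% in replicate 2. The hearts differed by at most 3.34 percentage points for any of the 3 exons.

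The 9-base exon lies in the stretch from chr1:135849443-135850728, printed here with the exon in capitals and without it.
Tnnt2-211: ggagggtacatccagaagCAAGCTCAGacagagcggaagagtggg
Tnnt2-207: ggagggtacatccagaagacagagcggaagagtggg
The 30-base and 9-base exons were mostly on different transcripts. Tnnt2-205, at 98.1 and 143 TPM in replicates 1 and 2, has other boundaries at the 30-base exon and was left out of the shares that follow. Transcripts with the 30-base exon and without the 9-base exon held 56.5% and 52.9% of the TPM of the other transcripts that span both, in replicates 1 and 2. Those with the 9-base exon and without the 30-base exon held 40.8% and 44.7%, and Tnnt2-204, the single annotated transcript with both, held 2.61% and 2.40%. Only 1 annotated transcript carries both exons, and no annotated transcript that spans both skips both. This pattern is therefore largely set by the annotation, and inclusion of 1 of the exons nearly fixes that of the other. Short-read counts of whole transcripts do not show which exons lie on 1 molecule.

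The level of inclusion depended on the table. In the kallisto-layout tables the 30-base exon was included at 87.0% in replicate 1 and 86.0% in replicate 2, the 12-base exon likewise at 87.0% and 86.0%, and the 9-base exon at 16.6% and 17.6%. There Tnnt2-209 held 61.8% and 61.5% of TPM, Tnnt2-213 held 20.2% and 19.3% and Tnnt2-201 held 12.3% and 13.1%. In the RSEM-layout tables Tnnt2-207 held 45.5% and 41.3% and Tnnt2-211 held 29.2% and 29.8%, and both were at 0 in the kallisto-layout tables. The most abundant form in either table, Tnnt2-207 or Tnnt2-209, includes the 12-base and 30-base exons and skips the 9-base exon. Inclusion of the 30-base exon above its skipping held in both, at a margin that the tables do not settle.

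**Figure D4:**
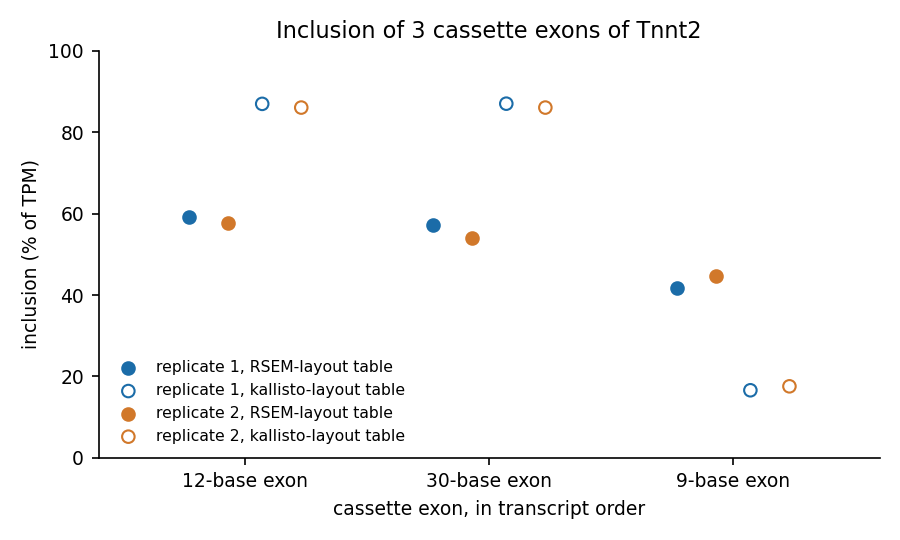
Inclusion, as a percentage of TPM, of 3 cassette exons of Tnnt2 in replicate 1 (blue) and replicate 2 (orange), from the RSEM-layout (filled) and kallisto-layout (open) tables. The 30-base exon is at 57.3% and 53.9% in the first and 87.0% and 86.0% in the second, and the 9-base exon is below it in both. The annotation largely ties the values of these 2 exons to each other.

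Tnnt2 also held 9.79% and 10.9% of its TPM in retained-intron transcripts in replicates 1 and 2, beside 5.72% and 6.13% in the kallisto-layout tables and 15.2% and 16.0% by expected count. Tnnt1 was spread over 6 transcripts with at least 5% each in either library, and in the RSEM-layout tables the highest was Tnnt1-206 at 24.6% in replicate 1 and Tnnt1-201 at 46.9% in replicate 2. In the kallisto-layout tables Tnnt1-206 was the highest in both libraries, at 42.3% and 53.5%. The Tnnt1 counts behind this were 487 and 402. A 33-base exon of Tnnt1 (chr7:4513581-4513613) was included at 74.5% and 91.0% of TPM, but at 57.0% and 44.6% in the kallisto-layout tables, so the tables do not settle its use. The splice forms of Tnnt3 and Tnni2 rest on 19 and 36 counts in replicate 2 and are not described further.

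Between the hearts, the fast skeletal genes were the members that differed. The log2 ratio of replicate 2 over replicate 1 was taken on TMM-scaled expected counts with a prior count of 0.5, and its exact 95% Clopper-Pearson interval covers counting error only. Calling a gene required a 2-fold or larger ratio whose interval excluded equality, a mean TPM of 1 or more and a summed count of 20 or more. All 9 members passed the filter and 3 were called, beside 0.868% of the 13598 genes tested. All 3 were higher in replicate 1, as were 0.544% of genes tested. Tnnc2 passed only through replicate 1, where it was high, so its call is a description. Among the 8 members with a TPM of at least 1 in both libraries 2 were called, beside 0.489% of the 13290 such genes. With a single library per heart there is no replicate check on these differences.

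The 3 called members are the fast skeletal subunit of each family. Tnnc2 had 81 counts and 1 count, a log2 ratio of -5.67 with an interval from -11.55 to -3.71. Tnnt3 had 119 and 19 counts (log2 ratio -2.51, interval -3.32 to -1.83). Tnni2 had 130 and 36 counts (log2 ratio -1.73, interval -2.32 to -1.20). These genes had a mean TPM under 5, and with a minimum of 5 in place of 1 none of them entered the comparison.

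None of the slow skeletal and cardiac forms was called. Tnnt1 had a log2 ratio of -0.17 (interval -0.36 to 0.03), and was not called. Tnnc1 and Tnni1 stood at -0.06 each, Tnni3k at -0.05, Tnni3 at 0.00 and Tnnt2 at 0.04. Scaling to the spike-ins moved the median of all tested genes by 0.13 and turned Tnnc1, Tnni1 and Tnni3k to 0.08, 0.07 and 0.08. The 3 called genes stayed called and higher in replicate 1 under each of the 4 scalings.

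Other skeletal muscle genes were also higher in replicate 1, in a list chosen with earlier results of these data known. Of 25 skeletal muscle markers, 10 were tested, 5 were called and all 5 of those were higher in replicate 1, beside 0.544% of all genes tested. Their median log2 ratio was -1.03 over the 10, beside -0.003 over all genes tested. Atp2a1 passed only through replicate 1, and among the 9 markers with a TPM of at least 1 in both libraries 4 were called. The called markers were Atp2a1, the calcium pump of fast muscle (330 and 16 counts), Mylpf, a fast myosin light chain (185 and 12), Myh8, the perinatal myosin heavy chain (1301 and 178), Myl1 (655 and 240) and Acta1, skeletal actin (9881 and 4124). Ckm and Mybpc2, also on that list, had log2 ratios of -0.05 and -0.02. The list summed to 1662 TPM in replicate 1 and 1458 TPM in replicate 2, of which Ckm, which heart muscle also expresses, held 1234 and 1237. None of the 25 was at 0 in both libraries, while Myh4, Myf6, Myod1 and Pax7 were at 0 in replicate 2, with 57, 3, 1 and 1 counts in replicate 1. The part of skeletal muscle RNA in the difference of Tnnc2, Tnni2 and Tnnt3 was not tested, nor was that of blood. Erythroid markers were called in 6 of 7 genes tested, all higher in replicate 1, beside 0.544% of all genes tested. Their median log2 ratio was -6.29. Slc4a1 passed only through replicate 1. Among the 6 erythroid markers with a TPM of at least 1 in both libraries 5 were called, beside 0.489% of such genes.

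**Figure D5:**
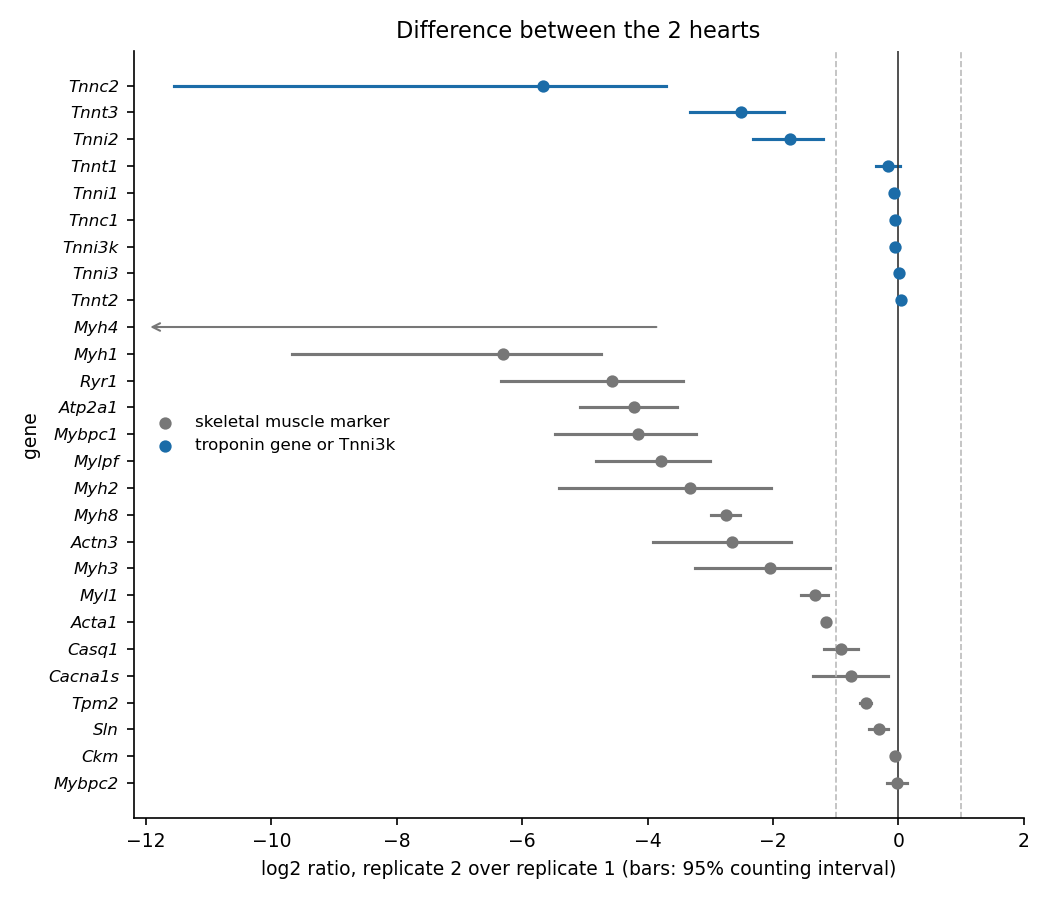
log2 ratio of replicate 2 over replicate 1 for the 9 members (blue) and the 18 of 25 skeletal muscle markers with a summed count of at least 20 (grey), with 95% counting intervals and dashed lines at 2-fold. Tnnc2, Tnnt3 and Tnni2 lie to the left of the 2-fold line with their whole intervals, the other 6 members lie between -0.17 and 0.04, and Myh4, with 0 counts in replicate 2, is drawn as an arrow without a point.

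The thin filament on which troponin sits was mostly level between the hearts. Of 18 thin filament partners 17 were tested, and 2 were called, Acta1 and Neb, both higher in replicate 1 (median log2 ratio of the 17, -0.10), beside 0.868% of all genes tested. Mybpc1, with 163 and 8 counts in replicates 1 and 2, fell under the TPM minimum at a mean of 0.97 and was not tested. Acta1, Tpm2, Mybpc1 and Mybpc2 are also on the skeletal muscle list. Cardiac actin Actc1 stood at 7776 and 7257 TPM in replicates 1 and 2. Tropomyosin Tpm1, to which troponin T binds, stood at 3222 and 3259 TPM, in the same range as Tnnt2 in the RSEM-layout tables. Nebulin Neb, a thin filament ruler of skeletal muscle, had 829 and 366 counts, a log2 ratio of -1.07. The cardiac myosin-binding protein Mybpc3 stood at 789 and 836 TPM.

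Genes of enzymes known to act on troponin I were expressed in both hearts. Of 19 kinase and phosphatase genes 18 were tested and 0 were called, with a median log2 ratio of -0.05. With 0.868% of all genes called, 0 of 18 is near the background and is no result about this list. The catalytic subunit of protein kinase A, Prkaca, stood at 172 and 174 TPM in replicates 1 and 2, and its regulatory subunit Prkar1a at 279 and 306 TPM. The protein phosphatase genes Ppp1ca and Ppp1cb stood at 213 and 222, and at 210.4 and 213 TPM. These 4 were the highest of the list by mean TPM, and Tnni3k was below each of them. Of the rest of the list, Ppp1cc and Camk2d were also above Tnni3k, and all others were below it.

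Regulators of muscle splicing were expressed too. All 18 were tested and 0 were called, again near the background of 0.868%, with a median log2 ratio of -0.01. The most abundant by TPM were Qk at 261 and 256, Rbpms at 148 and 150.4, Srsf5 at 141 and 155 and Rbm20, which splices titin, at 117 and 138 in replicates 1 and 2. Among the marker lists of other regions and cells, 0 of 10 atrial, 0 of 7 ventricular, 0 of 7 smooth muscle, 0 of 8 fibroblast, 0 of 8 endothelial and 0 of 7 tested macrophage markers were called. The 10 atrial markers were all lower in replicate 2, with a median log2 ratio of -0.31, and the 8 fibroblast and 7 macrophage markers were all higher, with medians of 0.17 and 0.27. Of all 13598 genes tested, 6950 were lower in replicate 2. Of the 20 cardiomyocyte markers 17 were lower too, with a median of -0.11, and Nppa, Myl7 and Myl4 are on both this list and the atrial list.

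Troponin I and T genes lie in pairs in the genome, and in 2 of the 3 pairs the members differed in level. Tnni3 and Tnnt1 lie 1.92 kb apart on the minus strand of chromosome 7 with no gene between them, yet Tnni3 exceeded Tnnt1 by 105-fold in mean TPM. Tnni1 and Tnnt2 lie 25.4 kb apart on the plus strand of chromosome 1, with Lad1, at 3.24 and 3.51 TPM, between them, and Tnnt2 exceeded Tnni1 by 3.43-fold. Tnni2 and Tnnt3 lie 54.4 kb apart on the plus strand of chromosome 7, with Lsp1, at 41.4 and 49.2 TPM, between them, and their levels overlapped, with means 1.59-fold apart. Both genes of this last pair were called lower in replicate 2, and Lsp1 within it was not lower in replicate 2. The fast troponin C gene Tnnc2 is on chromosome 2.

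Several members overlap other genes, and whether strand was used in the counting is not stated in the sources used here. Tnnc2 shares 1662 bases with Ube2c on the opposite strand, a gene with 1559 and 1532 counts in replicates 1 and 2, beside 81 and 1 for Tnnc2. Tnnc1 lies within Nisch, on the opposite strand at 137 and 149 TPM. Tnni3 shares 1297 bases with Dnaaf3 on the same strand, which had 11 and 14 counts. Tnnt3 shares 7936 bases with Prr33 on the opposite strand, at 26 and 25 counts, more than the 19 of Tnnt3 in replicate 2. These overlaps are of whole gene spans, and whether exons overlap was not checked. The posterior SD of the Tnnt3 count was 0 in both libraries. With 19 counts, the Tnnt3 level in replicate 2 is uncertain.

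The protein-coding genes nearest to each member in level are given as a description over 2 libraries. Nearness is the distance between the pairs of log2(TPM + 1) values in the RSEM-layout gene tables of the 2 libraries. Distances were not taken in the kallisto-layout tables, where the members stood at other levels. Nearest to Tnni3 were Atp2a2, the calcium pump of the cardiac sarcoplasmic reticulum (distance 0.10), Eef1a1 (0.16) and Tnnc1 (0.21). Nearest to Tnnc1 were Atp2a2 (0.11), Tnni3 (0.21) and mt-Atp8 (0.29), and nearest to Tnni1 was Actn2, the Z-disc alpha-actinin of heart (0.08), followed by Slc25a3 (0.09) and Atp5o (0.11). Nearest to Tnnt2 was myoglobin, Mb (0.11), at 2751 and 3284 TPM, followed by mt-Nd3 and mt-Nd2 (0.12 each).

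For the less abundant members, Tnni3k had Psmd13, Tm4sf1 and Smim7 within 0.01, and Tnnt1 had Ip6k2, Ankrd28 and Nr4a1 within 0.03, where many genes share a level. The fast forms had few near neighbours. Tnnc2 had Atp2a1 (0.35), Gm45837 (0.44) and Gm14440 (0.49), Tnni2 had Mbp (0.27) and Igfbp6 (0.34), and Tnnt3 had 2210418O10Rik (0.20), Plin1 (0.35) and Gm44502 (0.36). The nearest gene to fast troponin C was thus the fast muscle calcium pump Atp2a1, at 4.00 and 0.30 TPM in replicates 1 and 2.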

How the data were processed

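Total RNA of 2 hearts was sequenced, and the tables the authors deposited were used. Per the file headers, each library has a gene table and a transcript table of the RSEM column layout, with expected counts, TPM and percent of each gene's TPM per transcript deposited by the authors, and a transcript table of the kallisto column layout with estimated counts and TPM. The genome is mm10 and the annotation M21, per the labels and file headers. Program names and versions: not given in the sources used here. Symbols, exons, coordinates (1-based) and sequences were taken from GENCODE M21, in which all 55536 annotated genes were found.

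The members and lists were chosen with earlier results of these data known. Of the 10 erythroid symbols, 9 were found. Named genes were the members, the 3 protein-coding genes nearest in level (1 of them is not reported here), neighbouring genes, transcripts with at least 5% of a member's TPM, and, of each list, up to 4 members by TPM and those called; other genes, such as Myh4, were named after their values were seen. Expected counts were rounded to whole numbers for the ratio between the hearts and scaled by TMM (edgeR 4.0.16, R 4.3.3), with a prior count of 0.5. Each library was treated as a replicate of a single group, and levels are mean ± SD. RSEM-layout effective lengths are the length minus 99 bases, and kallisto-layout ones the length minus 344.1 and 341.1 bases in replicates 1 and 2 (transcripts over 1500 bases). The rule was tested on simulated libraries that held counting error and set fold changes only, so the test does not cover variation between animals. Alternatives used the kallisto-layout tables, posterior mean TPM, CPM, protein-coding transcripts, DESeq2 1.42.0 size factors, total counts, ERCC totals, further filters and single libraries. Counts per kilobase of the main coding transcript and exon inclusion by expected count were added after seeing the data.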

Additional observations from a re-analysis of the deposited data

How the results depend on the processing

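No paired analysis was possible because there is 1 group with 2 libraries. Depth limits the fast skeletal members, which had 1, 19 and 36 counts in replicate 2, and the splice forms of Tnnt1. The cause of the changes below was not tested.

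In the kallisto-layout tables, the log2 ratio Tnni1/Tnni3 was -0.86 (-1.25 as reported), summed troponin I over C 1.09 (0.37), and summed troponin T over C 0.84 (0.40). Inclusion of the 30-base, 12-base and 9-base exons of Tnnt2 was 86.5%, 86.5% and 17.1% there (55.6%, 58.5% and 43.2% as reported). Transcript shares there were 28.7% for Tnni1-207 (91.0% as reported), 42.7% for Tnni3-201 (50.3%), 66.3% for Tnni3k-201 (63.9%), and 0% for Tnni3-202 (47.2%), Tnnt2-207 (43.4%) and Tnnt2-211 (29.5%). In CPM, Tnni1/Tnni3 was -0.49, Tnnt1/Tnnt2 -7.58 (-7.25), troponin I over C 0.56 and T over C 1.13. Among protein-coding transcripts of the RSEM-layout tables, Tnni1/Tnni3 was -0.26, troponin I over C reversed to -0.24, and T over C was 0.25. In counts per kilobase of the main coding transcript, Tnni1/Tnni3 was -0.79, Tnnt1/Tnnt2 -7.47 and troponin I over C 0.050. By expected count, shares were 99.1% for Tnnc1-202 (98.9%), 69.6% for Tnni3-201, 28.3% for Tnni3-202, 28.8% for Tnnt2-211 and 80.6% for Tnni3k-201. With a mean TPM of at least 5, 0 members were called (3 as reported), since the 3 lie under it; DESeq2 size factors, total counts, spike-ins, kallisto-layout counts, no filter and a 1.5-fold threshold gave 3 each, Tnnc2, Tnni2 and Tnnt3.

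With each library alone, the log2 ratio Tnnc2/Tnnc1 ranged from -15.06 to -8.93, Tnni2/Tnni3 from -9.70 to -8.16 and Tnnt3/Tnnt2 from -11.17 to -9.26. Tnni1/Tnni3 ranged from -1.28 to -1.22, and Tnnt1/Tnnt2 from -7.40 to -7.10.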
